A study of Mus musculus with 12 samples.

Results

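The response of a sinusoidal endothelial cell line to INT-767 was measured on 8 of the 12 arrays in the series, 4 with the compound and 4 without it. They are all the arrays titled replicate 1 or replicate 3. The 4 arrays of replicate 2 were left out, and the arrays were chosen by measured values: the FFA and 767 arrays of replicate 2 differed from the other arrays of their groups in genes that respond to fatty acids. TSEC is an immortalized murine line of liver sinusoidal endothelial cells (LSEC), so every array came from 1 line in culture. Cells were kept in medium alone (Media) or given oleic acid at 0.66 mM with palmitic acid at 0.33 mM (FFA). Others were given INT-767 at 30 uM (767) or all 3 agents (FFA+767). The labels give 8 hours for FFA, 767 and FFA+767 and no time for Media. The study's methods give another oleic acid concentration and a longer exposure for its fatty acid arrays, so dose and time rest on the labels alone. Each group held 2 of the 8 arrays. Total RNA was measured on Mouse Gene 2.0 ST arrays, and each value is the log2 expression of 1 transcript.

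INT-767 is a bile acid derivative that activates both the nuclear receptor FXR (Nr1h4) and the membrane receptor TGR5 (Gpbar1). FXR bound to its ligand pairs with RXR and binds an inverted repeat of a hormone response half-site in target genes, while TGR5 couples to Gs, raises cAMP and acts through protein kinase A and CREB. In liver endothelium both receptors are known for effects on vascular tone and on the output of chemokines.

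Angptl4, an inhibitor of lipoprotein lipase and a strong target of fatty acid-bound PPARs, shows why replicate 2 was set aside. In replicates 1 and 3 Angptl4 was at 8.91 and 8.26 in Media, 10.34 and 10.64 in FFA, 8.24 and 7.76 in 767, and 10.21 and 10.49 in FFA+767. In replicate 2 it was at 8.08 in Media, 8.23 in FFA, 10.43 in 767 and 10.24 in FFA+767. The array labelled FFA replicate 2 was thus at the level of medium, and the array labelled 767 replicate 2 at the level of cells given fatty acids. Fabp4, a cytoplasmic fatty acid carrier, had the same order, with 7.09 in the FFA array and 8.27 in the 767 array of replicate 2. These values chose the arrays and are given as a description. The labels were kept as they stand, and values of replicate 2 are cited below only as labelled and outside the fit. Each replicate 2 difference therefore depends on labels in doubt. In replicate 2 both arrays labelled with INT-767 were at the Angptl4 level of fatty acids. A replicate 2 difference thus cannot be told apart from that of fatty acids and is no repeat of the fitted one.

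**Figure D1:**
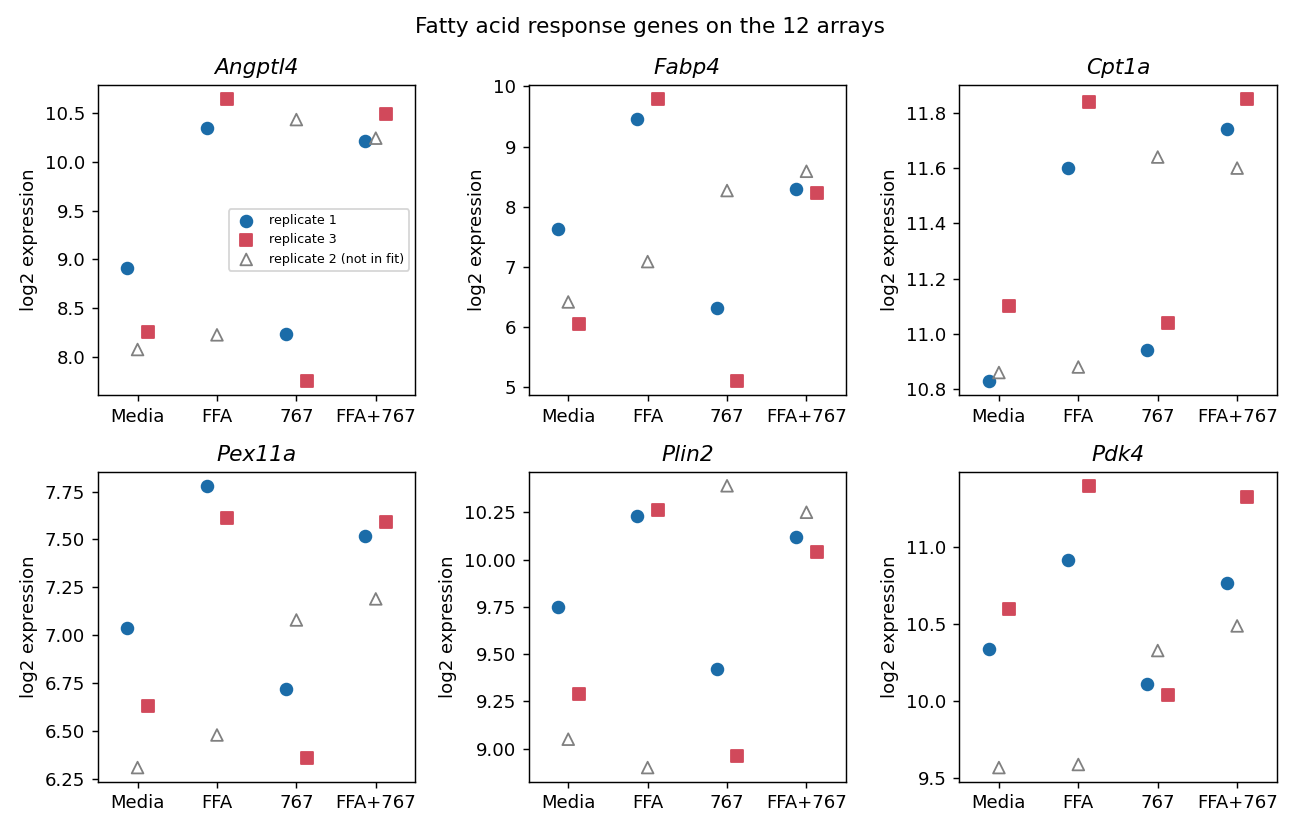
Log2 expression (vertical axis) of 6 fatty acid response genes in the 4 groups (horizontal axis), 1 point per array, with replicate 1 as circles, replicate 3 as squares and replicate 2, which is not in the fit, as open triangles. The triangle of FFA lies with the Media arrays and the triangle of 767 lies with the arrays given fatty acids, for example at 8.23 and 10.43 for Angptl4.

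The arrays were alike in scale, with medians from 5.76 to 5.87 over all 12. Samples with the same replicate number deviated together, with correlations of 0.38 to 0.52 between groups for the difference of replicate 3 from replicate 1, so the replicate number was kept as a factor. Sinusoidal and endothelial markers were thinly represented: 4 of 16 sinusoidal markers and 10 of 20 endothelial markers were measured, and Stab2, Lyve1, Pecam1 and Cdh5 were not among the tested transcripts. Of 12 markers of stellate cells and fibroblasts 8 were measured, Acta2 among them at a mean log2 level of 9.92. The median level of these 8 was 7.47. Of 9 cholangiocyte and epithelial markers 7 were measured, at a median level of 9.39. Of 12 hepatocyte markers 7 were measured, at a median level of 4.40, and of 14 Kupffer cell and leukocyte markers 2.

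No transcript passed the test for INT-767. At an adjusted p under 0.05 (limma with Benjamini-Hochberg adjustment over 25458 transcripts) 0 transcripts were called, or 0%, and the smallest adjusted p was 0.0709. At an unadjusted p under 0.05 there were 3810 transcripts, 1578 higher (6.2%) and 2232 lower (8.77%). The methods' unadjusted ANOVA on the same factors gave 3266 at that level and 0 after adjustment, with a smallest adjusted p of 0.0645. The 4 arrays with INT-767 lay wholly above the 4 without it for 514 transcripts (2.02%) and wholly below for 610 (2.4%). A difference of 1 sign in all 4 pairs of arrays was seen for 2753 transcripts upward (10.8%) and 3880 downward (15.2%). What follows therefore describes the leading differences, none of which passed the adjusted test, with their spread over the 4 pairs. The replicates are wells of 1 line, so these p-values measure the spread between cultures.

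Grem1, a secreted antagonist of bone morphogenetic proteins on chromosome 2, was at 8.61 and 8.43 in Media, 7.35 and 6.51 in FFA, 7.12 and 6.92 in 767, and 5.76 and 5.75 in FFA+767. Every INT-767 array was below the array it is paired with, by -1.49 and -1.59 in replicate 1 and by -1.52 and -0.76 in replicate 3. The fitted difference was -1.34 on the log2 scale (SE 0.15, 2.53-fold lower, adjusted p = 0.0974). The difference for fatty acids in the same fit was -1.43, so the 767 and FFA arrays overlapped and the arrays with both agents were lowest. In replicate 2, outside the fit, Grem1 was at 9.27 in Media, 9.28 in FFA, 7.63 in 767 and 7.90 in FFA+767. As labelled, both arrays with INT-767 were below both without, but they are also those at the fatty acid level of Angptl4. Grem1 was lower with fatty acids in the fit, so this order cannot stand as a repeat.

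Bmp4, a bone morphogenetic protein that Grem1 binds, followed the same order. It was at 9.53 and 9.47 in Media, 8.81 and 8.19 in FFA, 8.78 and 8.43 in 767, and 7.69 and 7.68 in FFA+767. The fitted difference was -0.85 (SE 0.11, adjusted p = 0.1), and in replicate 2 the difference was -0.96 without and -0.81 with fatty acids.

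Maf, a large Maf leucine zipper factor on chromosome 8 that marks mature sinusoidal endothelium, had no overlap between the arrays. It was at 7.20, 7.37, 6.80 and 6.23 in the arrays without INT-767 and at 6.05, 5.67, 5.32 and 5.48 in those with it. The fitted difference was -1.27 (SE 0.15, adjusted p = 0.0974). A second Maf transcript with a higher mean level gave -0.70 (SE 0.13), so the size of the difference depended on which of the gene's 2 transcripts was read.

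Jag1, a Notch ligand, also had no overlap. Its levels were 6.21 and 6.90 in Media and 5.84 and 6.4 in FFA, against 5.10 and 5.70 in 767 and 5.16 and 5.31 in FFA+767. The fitted difference was -1.02 (SE 0.11, adjusted p = 0.0974). In replicate 2 all 4 groups lay between 5.0 and 5.22, the INT-767 arrays slightly above the others.

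**Figure D2:**
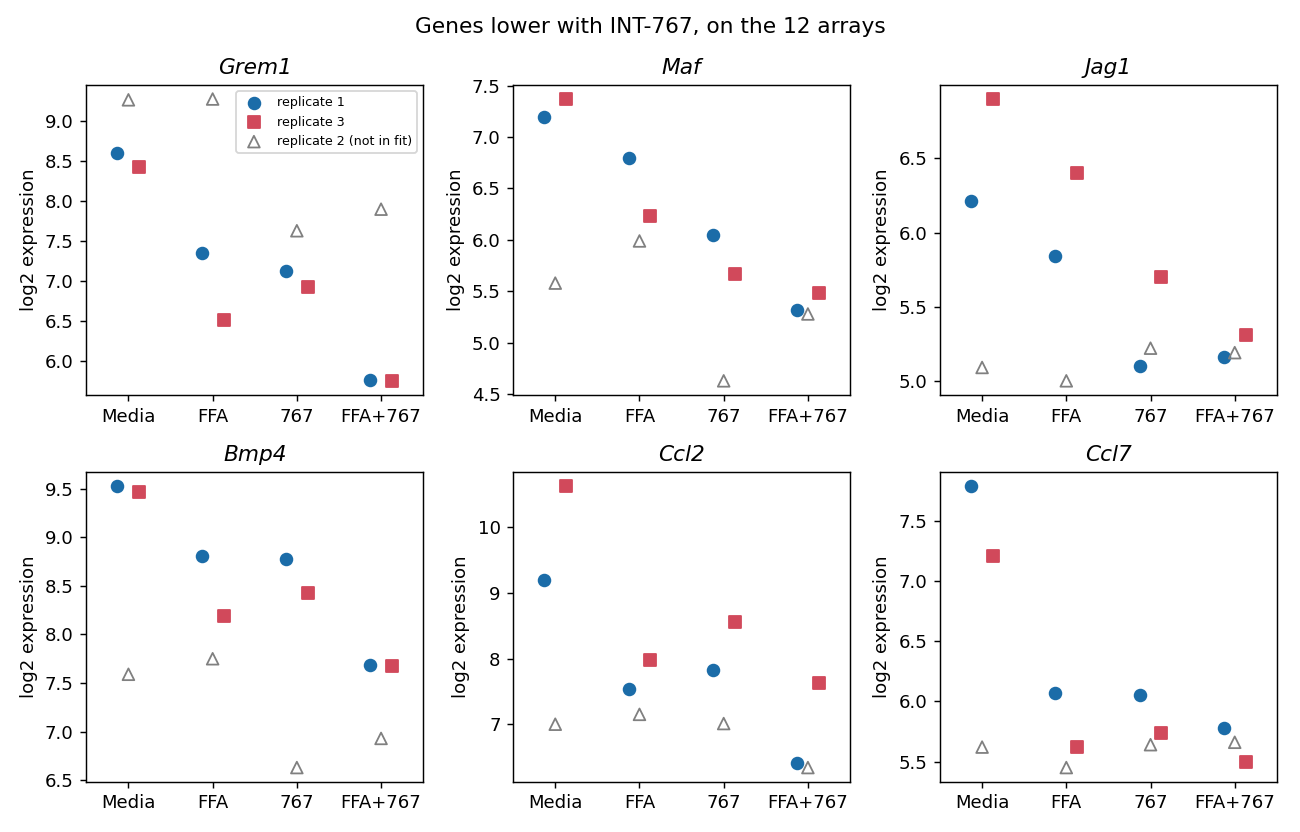
Log2 expression (vertical axis) of Grem1, Maf, Jag1, Bmp4, Ccl2 and Ccl7 in the 4 groups (horizontal axis), 1 point per array, with replicate 1 as circles, replicate 3 as squares and replicate 2, not in the fit, as open triangles. Within replicates 1 and 3 the Media array is the highest of the 4 groups for all 6 genes, and in replicate 2 Jag1 and Ccl7 are low in every group.

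Hk2, the hexokinase that traps glucose in the first step of glycolysis, had a small difference of very even size. The 4 pairs gave -0.73, -0.54, -0.56 and -0.60, and the fitted difference was -0.61 (SE 0.08, adjusted p = 0.0974). In replicate 2 the difference was 0.12 without and 0.05 with fatty acids. Gata5, a zinc finger transcription factor of heart and endocardium, differed by -0.66 (SE 0.08), and Megf10, an engulfment receptor, by -0.70 (SE 0.09). For both the replicate 2 arrays with INT-767 were lower than those without, by -0.37 and -0.26 for Gata5 and by -0.80 and -0.56 for Megf10. Clca3a1 at -0.88 (SE 0.10) and Hirip3 at -0.51 (SE 0.06) complete the genes lower at an adjusted p under 0.10, and Clca3a1 was close to the detection level, with a mean of 4.63. At that looser level there were 27 transcripts, 18 higher and 9 lower, and the 15 with 1 gene symbol stood for 11 genes.

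Among the 12 lower genes named by size the largest difference was at Fam180a, which encodes a protein of unknown function. Its levels were 9.07 and 7.92 in Media, 6.54 and 5.62 in FFA, 7.23 and 6.20 in 767, and 4.64 and 5.45 in FFA+767. The differences were -1.84, -1.90 and -1.72 in 3 pairs and -0.16 between the fatty acid arrays of replicate 3. The fitted value was -1.40 (SE 0.34, adjusted p = 0.189). Without the array FFA+767 replicate 3 it was -1.84 with an adjusted p of 0.0302, the single transcript called in any fit that left out 1 array.

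The other genes among the 12 lower by size were of several kinds. Cdh11, a cadherin of mesenchymal cells, was at 8.92, 7.86, 7.62 and 6.65 without INT-767 and at 7.24, 7.12, 5.39 and 6.36 with it, a difference of -1.23 (SE 0.32). Sprr1a and Ivl, neighbouring genes for precursors of the cornified envelope on chromosome 3, differed by -1.30 (SE 0.27) and -1.15 (SE 0.28). Krt36, a hair keratin, differed by -1.18 (SE 0.21) with no overlap between the arrays. Trav9d-3, an immunoglobulin-like V segment of the T cell receptor, differed by -1.13 (SE 0.30), also with no overlap. 9930111J21Rik2, listed by RefSeq under the older name Irgb5, differed by -1.29 (SE 0.22) over 4 pairs between -1.15 and -1.43, yet in replicate 2 its levels lay between 4.83 and 5.06 in all groups.

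Fabp4 was 1 of the genes used to set replicate 2 aside, and its INT-767 values in replicates 1 and 3 are therefore a description. It was at 7.63 and 6.05 in Media against 6.32 and 5.11 in 767, and at 9.46 and 9.79 in FFA against 8.29 and 8.23 in FFA+767. All 4 pairs were lower with INT-767, by -0.94 to -1.57. Smaller differences were seen for the others named: Angptl4 differed by -0.36 (SE 0.20), Pex11a, a factor of peroxisome division, by -0.22 (SE 0.10), and Cpt1a, which starts the import of fatty acids into mitochondria, by 0.05 (SE 0.07).

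**Figure D3:**
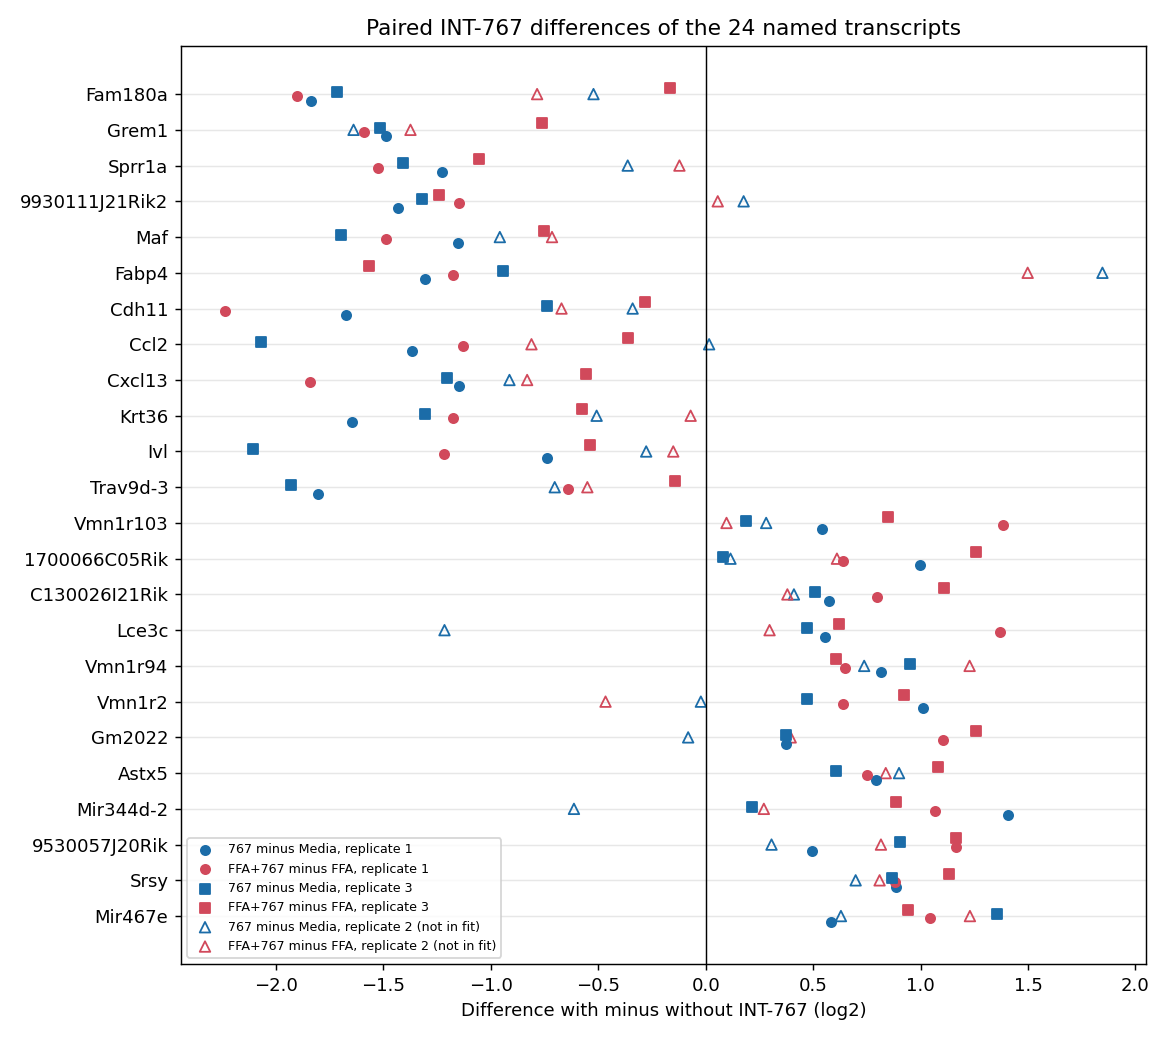
Differences with minus without INT-767 on the log2 scale (horizontal axis) for the 24 transcripts named by size (vertical axis), 1 point per pair of arrays. Blue marks pairs without and red pairs with fatty acids, circles replicate 1, squares replicate 3 and open triangles replicate 2, which is not in the fit. Fabp4 lies near -1.25 in the fitted arrays and at 1.85 and 1.5 in the arrays labelled as replicate 2.

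Promoter sequence was read for the 12 lower genes named by size. Of these, 7 matched the RefSeq promoter table (GRCm38.p6, 250 bases before to 50 after the start). The inverted repeat bound by FXR, spelled AGGTCANTGACCT, was in none of the 7 and in 0.00913% of all 32851 promoters, and the cAMP response element TGACGTCA was also in none, against 1.79%. The AP-1 element TGACTCA was in 4 of the 7, Fam180a, Sprr1a, Ivl and 9930111J21Rik2, against 5.2% of all promoters. Both strands were searched, and AP-1 was 1 of 13 patterns looked at, chosen for print after its count was seen. The half-site AGGTCA, which is part of the inverted repeat, was in Grem1, Cxcl13 and Ivl against 16.3% of all promoters. The other patterns were the NF-kB element, the serum response element, the TATA box TATAAA, the E-box CACGTG, the SMAD element GTCTAGAC, the hypoxia core ACGTG, the short cAMP element TGACG, the extended half-site TCAAGGTCA and the core of the inverted repeat GGTCANTGACC. Several of these overlap the patterns named before. The promoters of Sprr1a, Ivl and Fam180a are shown because they hold the AP-1 element and belong to the 12 lower genes named by size. They are read 5′ to 3′ on the gene's strand with the element in capitals, where TGAGTCA is the element on the other strand.
Sprr1a promoter, chr3:92485832-92486131, minus strand: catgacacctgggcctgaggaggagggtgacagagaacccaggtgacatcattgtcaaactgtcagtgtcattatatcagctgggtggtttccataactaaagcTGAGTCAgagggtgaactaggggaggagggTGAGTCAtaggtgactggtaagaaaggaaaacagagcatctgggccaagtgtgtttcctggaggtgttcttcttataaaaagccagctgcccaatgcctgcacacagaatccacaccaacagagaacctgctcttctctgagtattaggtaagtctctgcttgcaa
Ivl promoter, chr3:92573686-92573985, minus strand: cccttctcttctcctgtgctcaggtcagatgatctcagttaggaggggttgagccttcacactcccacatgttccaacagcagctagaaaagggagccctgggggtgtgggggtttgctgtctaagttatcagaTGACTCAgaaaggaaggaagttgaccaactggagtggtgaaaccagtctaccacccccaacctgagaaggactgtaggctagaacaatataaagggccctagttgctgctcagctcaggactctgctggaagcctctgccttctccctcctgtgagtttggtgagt
Fam180a promoter, chr6:35326092-35326391, minus strand: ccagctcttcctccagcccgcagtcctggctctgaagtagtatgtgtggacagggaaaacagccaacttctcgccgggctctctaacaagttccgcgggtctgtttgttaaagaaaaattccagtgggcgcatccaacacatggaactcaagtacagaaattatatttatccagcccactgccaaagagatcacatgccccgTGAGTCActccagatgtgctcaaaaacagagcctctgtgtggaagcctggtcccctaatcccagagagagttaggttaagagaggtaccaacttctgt
A match of letters is a description of the sequence and says nothing of binding in these cells. The share of 5.2% counts promoters, 32851 for 27025 genes, while the 4 of 7 counts genes. A part of AP-1 in the lower values was not tested. Jun, which encodes a subunit of AP-1, was at 9.94, 9.85, 9.45 and 8.63 without INT-767 and at 9.38, 8.64, 8.84 and 8.44 with it, a difference of -0.64 (SE 0.16, unadjusted p = 0.00482).

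Gene lists were read against the direction of all genes. Of 13315 genes taken at 1 transcript each, 2.69% were higher and 10.5% lower at an unadjusted p under 0.05, and 20.6% were lower in all 4 pairs. The median gene differed by -0.04, and 63.3% of the genes were lower whatever their p. Most lists therefore leaned downward with the whole table, and no list member passed the adjusted test. The lean of all genes depended on scaling and was smaller after renormalization, as given below.

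Genes of the extracellular matrix had the largest share of members lower at an unadjusted p under 0.05 among the 18 lists described. All 25 measured members were lower, where 63.3% of all genes were. Of the 25 members 16 were lower at that level, and the list median was -0.34. Tnc, a matrix glycoprotein of remodelling tissue, was at 6.55, 5.92, 5.36 and 5.44 without INT-767 and at 5.37, 5.04, 4.58 and 4.68 with it, a difference of -0.90 (SE 0.14). Lox, which crosslinks collagen, differed by -1.06 (SE 0.20), Mmp2, a gelatinase, by -0.79 (SE 0.22), and Timp3, a metalloproteinase inhibitor, by -1.01 (SE 0.28). The list median was -0.51 and -0.47 in the pairs of replicate 1, -0.35 without fatty acids in replicate 3 and -0.07 with them. As labelled, replicate 2 gave a median of -0.18 both without and with fatty acids. Without replicate 1, 4 of 23 members had an unadjusted p under 0.05, with a median of -0.20, and without replicate 3, 16 of 25 with -0.47. Without the replicate block 4 of 25 had an unadjusted p under 0.05. The list mean ranged from 7.61 to 8.78 over the arrays without INT-767 and from 7.39 to 8.12 over those with it, and the groups overlapped.

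All 8 measured markers of stellate cells and fibroblasts were lower too, 4 of them at an unadjusted p under 0.05, with a median of -0.41. Pdgfrb, the platelet-derived growth factor receptor of pericytes and stellate cells, was at 9.06, 6.97, 7.51 and 6.05 without INT-767 and at 8.19, 6.46, 6.56 and 5.35 with it. The difference was -0.76 (SE 0.14), and replicate 2 gave -1.5 and -0.93. Col1a1, a chain of fibrillar collagen, differed by -0.38 (SE 0.13), Des, a muscle intermediate filament, by -0.44 (SE 0.13), and Dcn, a small matrix proteoglycan, by -0.45 (SE 0.18). Col1a1 and Dcn also belong to the matrix list. The count was 8 of 8 without the array FFA+767 replicate 3, 7 of 8 without replicate 3, 1 of 8 without replicate 1 and 0 of 8 without the replicate block. The mean of these markers ranged from 6.76 to 9.13 without and from 6.70 to 8.37 with INT-767, and the list median in the fatty acid pair of replicate 3 was 0.01. Lower values were not limited to these markers. Of 7 cholangiocyte and epithelial markers 6 were lower, with a median of -0.28, and both Kupffer cell and leukocyte markers were lower. Of 7 hepatocyte markers 2 were lower and 5 higher. Every array came from 1 line in culture, and the stellate and fibroblast markers do not show that such cells were present. Bulk RNA cannot tell a change in the make-up of a culture from less RNA per cell. The part of the stellate and fibroblast markers in the matrix result was not tested.

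All 15 measured VEGF and angiogenic genes were lower as well, 9 of them at an unadjusted p under 0.05, and the median was -0.34. Without replicate 1 the count was 4 of 13. Nrp2, a co-receptor for VEGF-C and semaphorins, was at 8.86, 8.35, 8.32 and 8.15 without INT-767 and at 8.38, 7.93, 7.68 and 7.53 with it, a difference of -0.54 (SE 0.09). As labelled, replicate 2 gave -0.78 and -0.89. Pgf, a ligand of VEGF receptor 1, and Fgf2, a basic growth factor for endothelium, had no overlap between the arrays, with differences of -0.43 (SE 0.08) and -0.60 (SE 0.14). Pgf stood near the detection level, with a mean of 4.37. Efnb2, the ephrin of arterial endothelium, differed by -0.49 (SE 0.11). The receptors Kdr and Flt1 differed by -0.31 and -0.34, Kdr at a mean level of 4.43.

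Vasoactive and shear-responsive genes had 8 of 18 members lower at an unadjusted p under 0.05 and a median of -0.31. The count was 12 of 18 without the array FFA+767 replicate 3, 1 of 16 without replicate 1, where the median was -0.13, and 1 of 18 without the replicate block. Edn1, the vasoconstrictor endothelin, was at 7.27 and 6.02 in Media and between 4.26 and 5.19 in the other 6 arrays. Its difference was -1.86 without and -0.46 with fatty acids, where the FFA arrays stood at 5.13 and 4.40. Klf4, a shear-induced transcription factor, differed by -0.61 (SE 0.11) and Thbd, the thrombin receptor thrombomodulin, by -0.63 (SE 0.15). In replicate 2 Klf4 was higher with INT-767 by 0.17 and 0.22.

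Chemokines were a question of the study, which followed their output from LSEC. Of 13 measured genes of the chemokine list 7 were lower at an unadjusted p under 0.05 and none higher, with a median of -0.31. The count was 1 of 13 without replicate 1, 3 without the replicate block and 4 with all 12 arrays. Ccl2, the main attractant of monocytes, was at 9.19 and 10.63 in Media, 7.54 and 7.98 in FFA, 7.83 and 8.56 in 767, and 6.41 and 7.62 in FFA+767. The fitted difference was -1.23 (SE 0.25, 2.35-fold lower, adjusted p = 0.158), with -1.72 without and -0.75 with fatty acids. In replicate 2 Ccl2 was at 7.0 in Media and 7.01 in 767, and at 7.15 in FFA and 6.34 in FFA+767. Cxcl13, an attractant of B cells that is not in the list of 13, was named by size. It was lower in every fitted pair, by -0.56 to -1.84, with a fitted difference of -1.19 (SE 0.28). As labelled, replicate 2 gave -0.91 and -0.83. Cxcl12 differed by -0.80 (SE 0.28), Cxcl10 by -0.71 (SE 0.25), Cxcl14 by -0.71 (SE 0.21) and Cxcl16 by -0.31 (SE 0.16). Only Cxcl14 of these had no overlap between the arrays.

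Ccl7, a second monocyte attractant beside Ccl2 on chromosome 11, had the smallest p of all transcripts with 1 symbol in the test of interaction. It was at 7.79 and 7.21 in Media and at 6.05 and 5.74 in 767, a difference of -1.61. With fatty acids it was at 6.07 and 5.62 in FFA and 5.78 and 5.50 in FFA+767, a difference of -0.20. The interaction was 1.40 on the log2 scale (SE 0.17, unadjusted p = 0.000195, adjusted p = 0.928). Across all transcripts the interaction called 0 (0%) after adjustment, and 1131 (4.44%) had an unadjusted p under 0.05. The other leading transcripts were Trav9d-3, Gm2022, Olfr957 and Gm7444 with a higher difference under fatty acids, and Olfr1046, Gm16973, Zfp119b, Gm4971 and Olfr713 with a lower one. No difference between the 2 fatty acid states was therefore shown for any gene.

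Immediate early factors, the first genes transcribed after a stimulus, had 9 of 22 members lower at an unadjusted p under 0.05 and a median of -0.27, and ERK feedback genes had 6 of 19 and -0.25. In both lists the pair 767 and Media of replicate 3 had the largest median, -0.72 and -0.64. Without replicate 1 the immediate early list had 2 such members of 22 and without replicate 3 it had 7 of 20, while the ERK feedback genes had 2 of 19 without replicate 1. With all 12 arrays the immediate early list had 3 of 22. In replicate 2 the immediate early median was 0.13 in both states, and that of the ERK feedback genes -0.11 without and -0.15 with fatty acids. Spry4 and Spry1, inhibitors of receptor tyrosine kinase signalling, differed by -0.77 (SE 0.17) and -0.78 (SE 0.20), Dusp1, a MAP kinase phosphatase, by -0.44 (SE 0.11), and Hbegf, a ligand of the EGF receptor, by -0.80 (SE 0.24). Dusp1 was higher with INT-767 in replicate 2, by 0.63 and 0.42.

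Nr1h4, which encodes FXR, had a mean log2 level of 5.49 and a difference of -0.16 (SE 0.15), with pairs from -0.74 to 0.26. Gpbar1, Nr0b2, Slc51a and Slc51b were not among the tested transcripts. Of 36 FXR target genes 16 were measured, 4 lower at an unadjusted p under 0.05 and 0 higher, with a median of -0.10, and the share of all genes higher at that level was itself only 2.69%. In 1 of the 16 the arrays with INT-767 lay wholly above those without it, and in 1 wholly below. Over all 13315 genes this held for 190 and 373. Without replicate 1 the count lower at an unadjusted p under 0.05 was 1 of 16 and without the replicate block 2 of 16. The 4 lower in the main fit were Edn1, Socs3 at -0.39 (SE 0.10), Pltp, a phospholipid carrier, at -0.33 (SE 0.11) and Vldlr, a lipoprotein receptor, at -0.24 (SE 0.08). Of 25 measured cAMP-responsive genes 8 were lower and 0 higher, with a median of -0.19, and the count lower was 2 of 25 without replicate 1 and 3 without the replicate block. Sik1, a kinase induced by CREB, differed by -0.56 (SE 0.15), Irs2 by -0.59 (SE 0.13) and Ppargc1a, a coactivator of mitochondrial genes, by -0.48 (SE 0.14). Among 11 bile acid receptors and RXR partners Vdr, the vitamin D receptor, was the only member at that level, with -0.39 (SE 0.10) and no overlap.

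TGF-beta and BMP genes had 4 of 21 members lower at an unadjusted p under 0.05 with a median of -0.29, among them Inhba, an activin subunit, at -0.53 (SE 0.10) and Tgfbr1 at -0.34 (SE 0.08). Notch genes had 4 of 13 with -0.17, NF-kB genes 7 of 20 with -0.15, and cytokines and receptors 5 of 17 with -0.22. Without replicate 1 these counts were 2 of 21, 2 of 12, 1 of 20 and 0 of 17 in the same order. Vcam1, the adhesion molecule for monocytes and lymphocytes, differed by -0.74 (SE 0.18), and Il33, an alarmin of endothelial nuclei, by -0.75 (SE 0.25). Glycolysis and hypoxia genes had 6 of 25 with -0.18, led by Hk2 and by Car9, a carbonic anhydrase induced by hypoxia, at -0.54 (SE 0.14). That count was 11 of 25 without the array FFA+767 replicate 3, 1 of 24 without replicate 1, where the median was -0.05, and 1 of 25 without the replicate block. Antiviral interferon-stimulated genes had 2 of 33, cholesterol genes 3 of 19 and PPAR targets 4 of 33. For PPAR targets the count was 9 of 33 without the array FFA+767 replicate 3, and with all 12 arrays the median was 0.04. The PPAR list holds genes by which replicate 2 was left out, such as Fabp4 and Cd36. Its median with all 12 arrays is therefore no independent check.

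**Figure D4:**
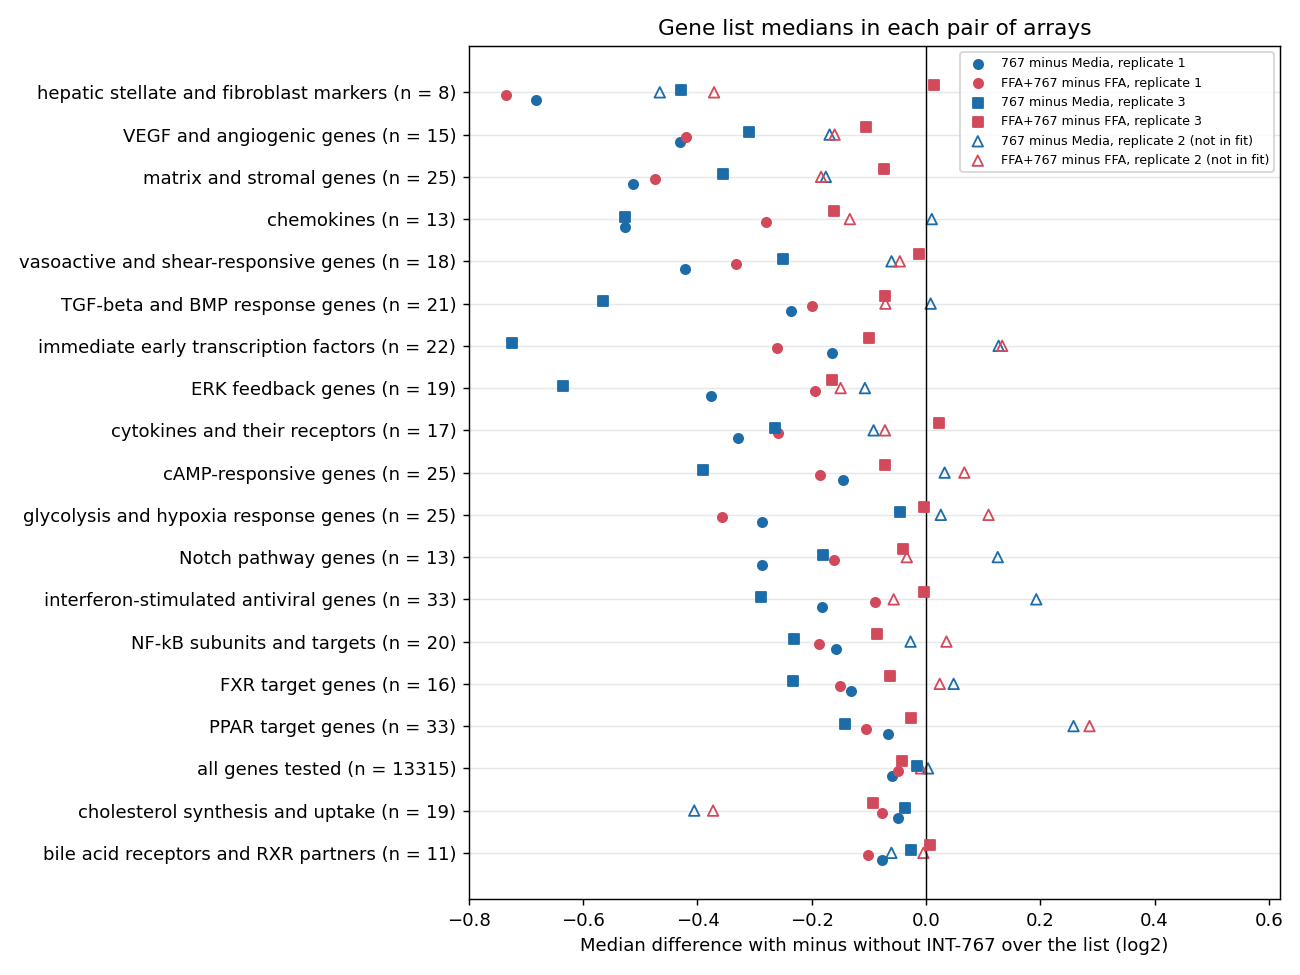
Median difference with minus without INT-767 on the log2 scale (horizontal axis) for 18 gene lists and all 13315 genes (vertical axis, with the number of genes measured), 1 point per pair of arrays with pairs without fatty acids in blue, pairs with them in red, replicate 1 as circles and replicate 3 as squares. The red squares, FFA+767 minus FFA of replicate 3, lie closest to 0 for most lists, at -0.07 for the matrix genes against -0.51, -0.47 and -0.35 in the other pairs.

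In most lists the fatty acid pair of replicate 3 had the median nearest 0. Over 41 lists, which share genes, its median was the one nearest 0 in 27, against 12 for the other pair of replicate 3 and 1 for each pair of replicate 1. Over all genes tested this pair did not stand apart. Its median was -0.042, against -0.015 in the other pair of replicate 3. In replicate 1 the medians were -0.060 without and -0.049 with fatty acids.

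The transcripts higher with INT-767 were of another kind. They had a median log2 level of 5.21, against 6.82 for those lower and 5.87 for all, and 433 of 1578 carried 1 gene symbol, against 1458 of 2232 among the lower ones. With the genes ranked by level in 4 equal bins, in the lowest bin 5.62% were higher and 4.03% lower, and in the highest 0.721% were higher and 8.71% lower. In the second bin 3.18% were higher and 15.3% lower, and in the third 1.23% and 14%. The spread of values within an array also differed: the interquartile range was smaller in the INT-767 array of all 4 fitted pairs, by -0.03 to -0.14, and in replicate 2 by -0.02 in 1 pair and larger by 0.07 in the other. Its part in the direction of the differences was not tested beyond renormalization. With quantile normalization applied again, 52% of the transcripts at an unadjusted p under 0.05 were higher, and with arrays shifted to 1 median 53.8%, against 41.4% as deposited. Under that quantile normalization protein-coding genes went from 306 higher and 1371 lower to 493 and 899. Their median went from -0.044 to -0.008. At that p 13 of 25 matrix genes, 8 of 15 VEGF and angiogenic genes and 6 of 13 chemokines were then lower. Cholesterol genes lower whatever their p went from 16 to 9 of 19.

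Genes for microRNAs and for chemosensory receptors leaned upward. Of 222 transcripts of microRNA genes 41 were higher at an unadjusted p under 0.05 and 3 lower, and with quantile normalization applied again 40 were higher and 5 lower. Of 343 olfactory receptor genes 37 were higher and 1 lower, and of 145 vomeronasal receptor genes 19 were higher and 0 lower, at median levels near the limit of 4.5 for a transcript to be called present. These receptors are known from sensory neurons, and their values here are those of probes at low signal. In the fit of all 12 arrays the counts were 22 and 6 for microRNA genes and 18 and 3 for olfactory receptors. In the main fit 6.2% of all transcripts were higher and 8.77% lower at that p. Transcripts with no symbol had 9.12% higher and 6.69% lower, and those with several symbols 16.7% and 7.53%. For snoRNA genes the shares were 22.5% and 24.7%. A raised share of higher members was thus not limited to microRNA and chemosensory receptor genes.

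**Figure D5:**
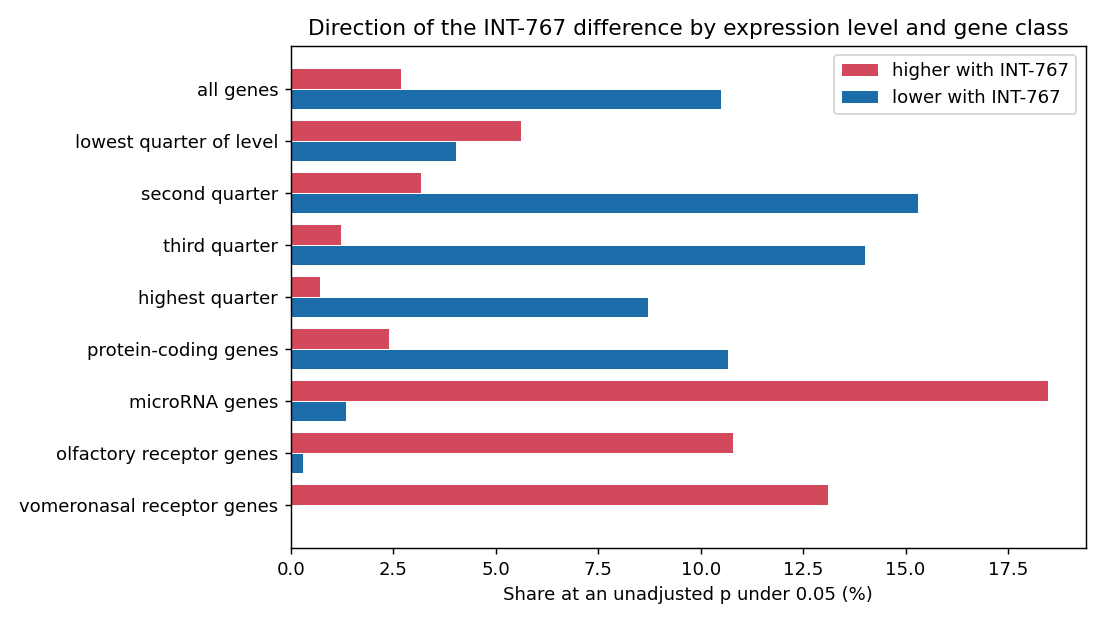
Share of genes or transcripts at an unadjusted p under 0.05 in percent (horizontal axis), higher with INT-767 in red and lower in blue, for all 13315 genes, for 4 bins by mean level and for 4 gene classes (vertical axis). Lower genes prevail above the lowest bin, and higher ones prevail among microRNA and chemosensory receptor genes.

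Among the 12 higher transcripts named by size the largest difference was at Mir467e, a microRNA gene of a repeated cluster on chromosome 2. The table also held 12 transcripts higher by more than 1, none of which met the naming rule. Its levels were 6.67 and 5.08 in Media, 6.69 and 5.55 in FFA, 7.25 and 6.44 in 767, and 7.74 and 6.49 in FFA+767. The fitted difference was 0.98 (SE 0.12, adjusted p = 0.0974), and replicate 2 gave 0.63 and 1.23. Of 31 transcripts of the related Mir297, Mir466, Mir467 and Mir669 families 8 were higher at an unadjusted p under 0.05 and 0 lower, but the 31 held only 24 distinct rows of values, so members share probes or sequence. Mir344d-2 had no overlap between the arrays, at 6.4 to 6.71 without and 6.92 to 8.12 with INT-767, a difference of 0.89 (SE 0.19), while in replicate 2 the difference was -0.61 and 0.27. The array reads the transcript of a microRNA gene and not the mature strand.

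Mature sequences are shown for the microRNA genes with a difference over 0.6, chosen after their values were seen, to let their targeting sequences be compared. RefSeq (GRCm38.p6) gave them for 6 of the 9 such genes. The seed, bases 2 to 8 from the 5′ end, is in capitals.
miR-186-5p, chr3:157544285-157544306: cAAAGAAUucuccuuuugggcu
miR-186-3p, chr3:157544324-157544345: gCCCUAAGgugaauuuuuuggg
miR-344d-3p, chr7:61685279-61685300: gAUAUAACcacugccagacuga
miR-344d-2-5p, chr7:61685318-61685341: aGUCUGGUugcuggcuauauucca
miR-761, chr4:109017669-109017690: gCAGCAGGgugaaacugacaca
miR-1945, chr16:11254381-11254402: uCUUCGCGgguacugucgggac
miR-3471, chr4:10845585-10845606: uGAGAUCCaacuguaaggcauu
miR-101c, chr9:3038680-3038698: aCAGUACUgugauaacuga
The 8 strands printed carried 8 different seeds, and the other genes were not compared. Their differences were 0.91 (SE 0.26) for Mir186, 0.68 (SE 0.18) for Mir761, 0.65 (SE 0.11) for Mir1945, 0.61 (SE 0.22) for Mir3471-1 and 0.61 (SE 0.11) for Mir101c. Those of Mir186 and Mir3471-1 rested on replicate 1, since the pairs without fatty acids of replicate 3 gave -0.05 and 0.13.

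The remaining higher transcripts by size were mostly members of multicopy families. Srsy, a repeated gene of the Y chromosome, was at 5.55, 4.35, 6.22 and 4.71 without INT-767 and at 6.43, 5.22, 7.10 and 5.84 with it. Its difference was 0.94 (SE 0.08, adjusted p = 0.0709) over 4 pairs between 0.87 and 1.13, and replicate 2 gave 0.70 and 0.81. The groups nevertheless overlapped, because the replicates differed by -1.30. Astx5, a repeated noncoding gene of the X chromosome, differed by 0.81 (SE 0.09, adjusted p = 0.0974) with 3 of its 5 transcripts holding identical values, and replicate 2 gave 0.90 and 0.84. For both families the signals of near-identical copies cannot be separated on the array. 9530057J20Rik on chromosome 8 differed by 0.93 (SE 0.13), with 0.31 and 0.82 in replicate 2, and the vomeronasal receptor gene Vmn1r94 by 0.75 (SE 0.13), with 0.74 and 1.23. The others of the 12, Gm2022, Vmn1r2, Lce3c, C130026I21Rik, 1700066C05Rik and Vmn1r103, differed by 0.74 to 0.78.

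In replicate 2, as labelled, the 12 lower transcripts were lower in 9 cases without and in 10 with fatty acids, and the 12 higher ones were higher in 8 and 11. Both contrasts use an array whose label is in doubt. FFA+767 minus Media avoids those arrays but holds the fatty acid difference as well, and there 10 of the 12 lower transcripts were lower and 6 of the 12 higher ones higher. In that contrast the median was 0.01 over all transcripts lower at an unadjusted p under 0.05 and -0.03 over those higher. Of all transcripts lower at an unadjusted p under 0.05, 60.3% had a lower mean with INT-767 in replicate 2 as labelled, against 51.7% of all transcripts tested, and of those higher 56.5% were higher, against 48.3%.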

How the data were processed

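The authors processed the arrays in Partek 6.6 and deposited log2 expression values, made by GC-RMA according to the study's methods (RMA per the labels), in a table restricted to transcripts above 4.5 on at least 1 of 12 arrays. The deposited table held 26076 transcripts, 14317 with 1 symbol, 1397 with several and 10362 with none in the platform annotation. Arrays have no read depth, and precision is limited by their number. Groups were taken from the labels. Transcripts over 4.5 on at least 1 of the 8 arrays (25458) were fitted with limma 3.58.1 in R 4.3.3, with INT-767, fatty acids and replicate number as factors and 4 residual degrees of freedom. P-values were adjusted by Benjamini-Hochberg over all transcripts. A second fit added the interaction. The fit was tested on simulated data. The replicate number was kept as a block because same-numbered arrays deviated together, with correlations from 0.2 to 0.54 over 18 pairs of the 12 arrays.

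Genes were named by a rule. It took the 12 largest differences in each direction with 1 sign in all 4 pairs and an unadjusted p under 0.01 (none passed adjustment). It also took the 4 smallest p-values of each list described, the receptors of INT-767 and the chemokines of the study. The fatty acid response genes behind the choice of arrays and the 5 leading interactions in each direction were named too. Genes with an adjusted p under 0.10 were added. Of several transcripts of a gene, lists used the one with the highest mean. The members and lists were chosen with earlier results of these data known. Of 995 list entries in 41 lists, 750 matched a tested gene. Alternatives covered filters, scaling, the block, the arrays fitted, priors and weights.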

Additional observations from a re-analysis of the deposited data

Results flagged for a closer look

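Of 115 sets of 4 paired differences (97 transcripts and 18 list medians), 8 had 1 pair far from the other 3, where chance gives about 1 set in 20. In the fatty acid pair of replicate 3, Grem1 differed by -0.76 against -1.59 to -1.49 elsewhere, Cxcl12 by -0.07 against -1.11 to -0.99, Fam180a by -0.16 against -1.90 to -1.72, and Srsy by 1.13 against 0.87 to 0.88. In the pair without fatty acids of replicate 3, Vdr differed by -0.58 against -0.33 to -0.31, Pltp by 0.08 against -0.48 to -0.45, and Prmt1, an arginine methyltransferase that acts as a coactivator of nuclear receptors, by 0.18 against -0.31 to -0.28. Lce3c differed by 1.37 in the fatty acid pair of replicate 1 against 0.47 to 0.62.

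On the array labelled 767 replicate 2, which the fit of 8 arrays did not use, Angptl4 was at 10.43 and Fabp4 at 8.27, both above every Media array. The cause was not tested.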

How the results depend on the processing

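No transcript passed an adjusted p under 0.05 in any alternative except the fit without FFA+767 replicate 3, where 1 did, so that leaving out arrays or a replicate gave 0 to 1. The count higher at an unadjusted p under 0.05 was 1578 with the replicate block and 842 without the pairing, and the count lower 2232 and 1097. The interaction gave 1131 and 561. With Media and FFA+767 of replicate 2 added, an alternative chosen after seeing the data, 964 were higher and 1381 lower. Leaving out arrays or a replicate gave 852 to 1672 higher, 840 to 2247 lower and 841 to 1750 for the interaction. The lowest counts of both directions came without replicate 1, the lower count was 1322 without 767 replicate 1, and the highest interaction count came without Media replicate 3. The causes were not tested.

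Over 97 named transcripts, 2019 of 2027 alternative values kept their direction and side of the threshold. None of the 97 passed adjustment in the main fit, so keeping the side meant still not passing. Many were named for an even sign or a small p. Some alternatives, such as those without the filter or the block, leave the fitted difference unchanged. The count is therefore no measure of robustness. With all 12 arrays the sign turned for Vldlr (0.0738), Kmt2d (0.0142), Slc25a20 (0.0408), Angptl4 (0.485) and Pex11a (0.1). Angptl4 and Pex11a were among the genes by which replicate 2 was left out, so their turn follows from the choice of arrays. Leaving out arrays or a replicate gave -0.436 to 0.114 for Nr1h4 and -0.025 to 0.125 for Cpt1a. Of 288 list medians 23 moved. Signal near 4.5 limits the low transcripts.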
